A study of Mus musculus with 6 samples.

Results

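MHC class I antigen presentation was followed in DR4 mouse embryonic fibroblasts through 9 genes, which were B2m, H2-D1, H2-K1, Tap1, Tap2, Tapbp, Psmb8, Psmb9 and Psmb10. They were chosen by name, and every probe set whose platform gene symbol, old or current, was one of these names was used. All 9 of them were measured, among 18193 genes with a single symbol on the arrays. They had 26 probe sets, of which 25 were on the MOE430A array and 1, for Psmb8, was on the MOE430B array. A further 3 probe sets list one of these genes together with others and were left out, and 2 of those were above the floor described below on all 3 arrays.

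DR4 is the name of a drug-resistant mouse strain whose embryonic fibroblasts serve as feeder cells for embryonic stem cells. The labels give the cells as fibroblasts of day 15 embryos, profiled beside stem cells of the lines V6.5, R1 and J1 as their control, which were not analysed here. Culture was on 0.1% gelatin under 5% CO2 at 37 C, in D-MEM that held LIF and 15% heat-inactivated serum. All 6 samples are of this single condition: RNA of 3 replicates was hybridised to both array types, with 12x10e6 cells and 2.4 ug/ul RNA for replicate 1 and 3x10e6 cells and 3.0 ug/ul for replicates 2 and 3, in the labels' notation. Neither the strain background nor a treatment is named in the labels, and separate cultures are not mentioned there. The p-values cover only the spread between replicates 2 and 3, pooled over the probe sets tested, and that spread could be technical.

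MHC class I molecules show peptides from inside the cell to cytotoxic T cells. The proteasome cuts proteins into peptides, the transporter made of Tap1 and Tap2 carries them into the endoplasmic reticulum, and tapasin holds empty molecules of heavy chain and beta-2 microglobulin there until a peptide fits. Interferons raise most of these genes, and the immunoproteasome subunits Psmb8, Psmb9 and Psmb10 then take the places of Psmb5, Psmb6 and Psmb7 in the proteasome core.

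In these fibroblasts the light chain B2m, both heavy chain genes, the transporter, tapasin and Psmb10 lay above the floor. The immunoproteasome subunits Psmb8 and Psmb9 did not. The heavy chain signal cannot be assigned to a single gene, as described below. The floor was the median signal of each array, and a probe set counted as above it when it was above it on all 3 arrays of its type. By that measure 7 of 9 genes were above the floor, against 54.7% of all genes with a single symbol. A gene counted when any of its probe sets did, so genes with many probe sets, such as H2-D1 with 9, had more chances to pass. Of the 25 MOE430A probe sets of these genes 15 were above it, or 60%, against 42.4% of all probe sets on that array. A further 2 were above it on 1 array and 8 on none.

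The promoters are shown first because class I genes are known for a shared set of short elements just before the gene. These are a kB element bound by NF-kB, an interferon element, an X2 element and a CCAAT box read on the opposite strand (ATTGG), and the X2 element and CCAAT box belong to the module through which the class I regulator Nlrc5 acts. RefSeq promoter sequence (GRCm38.p6) was matched by symbol for 8 of the 9 genes, all but Tap2. The stretches below run 5′ to 3′ on the gene's strand and end at the base before the annotated start. Matches to the letters that the next paragraph gives for these elements are in capitals. They cover chr2:122147507-122147686 on the plus strand for B2m, chr17:34000348-34000527 on the minus strand for H2-K1 and chr17:35262914-35263093 on the plus strand for H2-D1. The last stretch, chr17:34187331-34187555 on the plus strand, is the whole interval of 225 bases between the starts of Tap1 and Psmb9, which are read in opposite directions.
B2m: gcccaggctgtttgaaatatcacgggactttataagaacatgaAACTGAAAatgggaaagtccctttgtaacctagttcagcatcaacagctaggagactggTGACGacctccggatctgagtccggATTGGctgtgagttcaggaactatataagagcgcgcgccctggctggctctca
H2-K1: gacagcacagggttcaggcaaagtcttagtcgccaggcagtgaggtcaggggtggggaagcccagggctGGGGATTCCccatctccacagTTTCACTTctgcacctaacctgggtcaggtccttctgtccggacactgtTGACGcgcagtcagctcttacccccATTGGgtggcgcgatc
H2-D1: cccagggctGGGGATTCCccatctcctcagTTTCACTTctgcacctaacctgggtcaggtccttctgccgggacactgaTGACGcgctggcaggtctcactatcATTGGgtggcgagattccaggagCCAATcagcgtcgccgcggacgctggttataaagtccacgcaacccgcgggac
Tap1 and Psmb9: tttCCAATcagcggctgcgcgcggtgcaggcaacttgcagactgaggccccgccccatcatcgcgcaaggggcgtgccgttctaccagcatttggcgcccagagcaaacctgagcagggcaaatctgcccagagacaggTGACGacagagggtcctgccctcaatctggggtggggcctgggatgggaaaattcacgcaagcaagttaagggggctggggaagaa

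The motifs were searched on both strands in the 250 bases before each of 27025 RefSeq genes, and their letters were chosen after these sequences had been seen, so the matches are a description. The kB letters GGGNNTTCC were found in 2 of the 8 promoters, those of H2-K1 and H2-D1, against 4.88% of all. These letters fix the spacing within the element, so a kB site of another length would be missed. The stretch gggaaagtccc in the B2m promoter was not matched for that reason, and B2m is not shown to lack a kB site. The interferon element core AANNGAAA was found in 3 of the 8 promoters, those of B2m, H2-K1 and H2-D1, against 21.6% of all. The X2 letters TGACG were found in 5 of the 8, against 17.9% of all, where Tap1 and Psmb9 share the same bases. CCAAT was found in 6 of the 8, against 34.5% of all, and TATAA in 3 of the 8, against 23.5%. The promoter of Psmb10 held none of these letters, that of Psmb8 held only TATAA and that of Tapbp only CCAAT. No match printed in capitals overlapped another.

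The order of the elements was the same in the 3 genes that encode the class I molecule itself. TGACG was followed by ATTGG with 20 bases between them in B2m, H2-K1 and H2-D1. That exact spacing, set after these sequences had been seen, occurred in 25 of the 27025 promoters, or 0.0925%. The 3 genes are among the 25 by the choice of spacing, and H2-M3, a further class I heavy chain gene, was another of them. In H2-K1 and H2-D1 the kB and interferon elements began 21 bases apart, and the whole block lay 60 bases nearer the annotated start in H2-K1. The 250 bases before the starts of these heavy chain genes, aligned with free ends, were 87.4% identical, with 166 identical of 190 aligned columns. The map of the matches shows this arrangement.

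**Figure D1:**
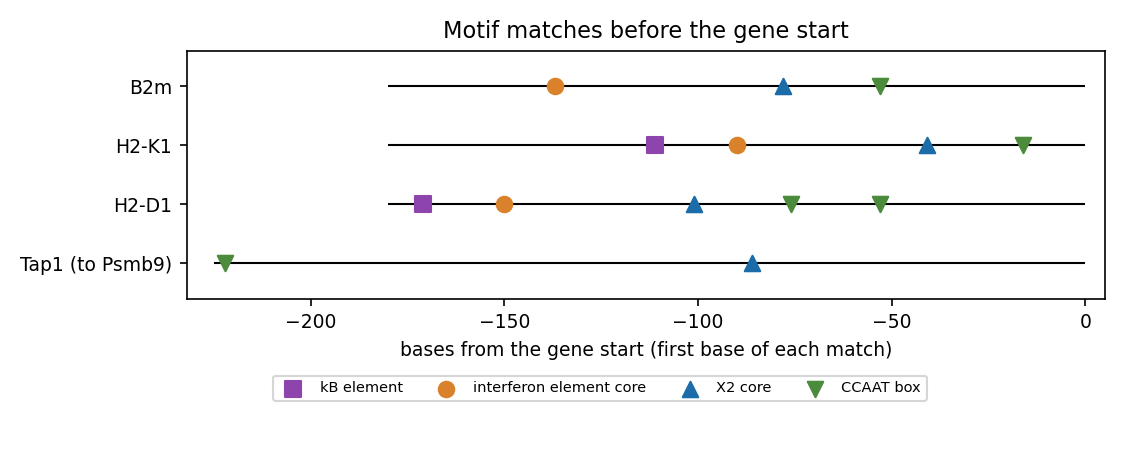
Position of each motif match, in bases from the annotated gene start, in the 4 printed stretches; the line is the stretch and each symbol the first base of a match. The X2 core and the CCAAT box beyond it are 25 bases apart from first base to first base in B2m, H2-K1 and H2-D1, and the stretch between Tap1 and Psmb9 holds an X2 core at 86 bases and a CCAAT box at 222 bases before Tap1.

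B2m encodes beta-2 microglobulin, the light chain that every class I molecule needs. Its brighter probe set gave 37303, 54353 and 51202 units of MAS5 signal in replicates 1, 2 and 3, a mean of 47620 ± 9072 (SD, n = 3). The other gave 24167, 25639 and 21906, a mean of 23904 ± 1880 (SD, n = 3). Replicate 1 was the lowest of the 3 arrays by the first probe set and lay between the others by the second, so the probe sets of this gene gave different orders. The array medians were 689, 685 and 734 units in replicates 1, 2 and 3.

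The heavy chains H2-K1 and H2-D1 carry the peptide groove and differ between mouse strains. All 4 H2-K1 probe sets were above the floor, and 4 of the 9 H2-D1 probe sets were. The H2-K1 probe set with the highest mean gave 11158, 16541 and 10603 units. Its replicate 2 stood above the other arrays, which lay close to each other. The second H2-K1 probe set gave 2750, 3514 and 3343 units, the third 2018, 1684 and 2649, and the fourth 1494, 2027 and 1789. Replicate 2 was the highest array in 3 of the 4 H2-K1 probe sets and the lowest in the third.

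Of the H2-D1 probe sets, the one with the highest mean gave 3067, 3282 and 5405 units, with replicate 3 well above the other arrays. The second gave 2058, 2547 and 2321 units, with all arrays near each other. The third gave 1727, 1711 and 3229 units and repeated the high replicate 3. The fourth gave 1366, 2750 and 2132 units, with replicate 1 the lowest and replicate 2 the highest, 2.01 times apart. The fifth, at 654, 1155 and 706 units, was above the floor in replicate 2 alone, as was the sixth, at 513, 714 and 611 units. The last 3 were below the floor on every array, at 56.4 to 433 units.

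The H2-K1 and H2-D1 values are uncertain as measures of a single gene. All 4 H2-K1 and 7 of the 9 H2-D1 probe sets carry the suffix _x_at, which Affymetrix gives to probe sets that share sequence with other genes, and every H2-D1 probe set above the floor was of that kind. The 2 H2-D1 probe sets without the suffix were below the floor on every array, at 84.0, 78.5 and 433 units and at 56.4, 69.4 and 57.3 units. The heavy chain genes of the mouse are near copies of each other, so signal from H2-K1, H2-D1 and other class I genes cannot be told apart in the _x_at probe sets. The counts of H2-K1 and H2-D1 as 2 genes above a floor rest on such probe sets. The probe sequences were not used here.

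Tap1 and Tap2 form the peptide transporter, and tapasin, encoded by Tapbp, bridges it to the class I molecule. A single Tap1 probe set was above the floor, at 1769, 1899 and 1653 units, a mean of 1774 ± 124 (SD, n = 3). The other 3 Tap1 probe sets ranged from 21.4 to 283 units and were below it on every array, so the probe sets of this gene gave different answers about the floor. Tap2 gave 1116, 1233 and 1169 units, a mean of 1172 ± 58.6 (SD, n = 3). Its SD of 0.07 on the log2 scale was the lowest of the 15 probe sets above the floor. Tapbp gave 5535, 6128 and 7191 units by one probe set and 2663, 2283 and 3450 by another, with replicate 3 the highest array in both.

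Among the immunoproteasome subunits, Psmb10 alone was above the floor. Psmb10 gave 1011, 1499 and 1487 units, a mean of 1332 ± 278 (SD, n = 3), with replicate 1 below the others. Psmb9 gave 429, 370 and 390 units, a mean of 396 ± 30.2 (SD, n = 3), and all 3 arrays lay together below the floor. Psmb8 gave 392, 468 and 61.2 units on MOE430A and 143, 112 and 428 units on MOE430B, where the array medians were 849, 917 and 907 units. Replicate 3 was the lowest array for Psmb8 on the one type and the highest on the other, and all 6 values were below the median of their own array. A value below the floor does not show that a gene is silent, because the floor is the middle of each array. When the floor was set at 200 units, Psmb9 also counted as above it and Psmb8 did not, which made 8 of 9 genes, against 79.7% of all genes. With the 75th percentile of each array as the floor, 4 of 9 genes remained, B2m, H2-K1, H2-D1 and Tapbp, against 30.4% of all genes.

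**Figure D2:**
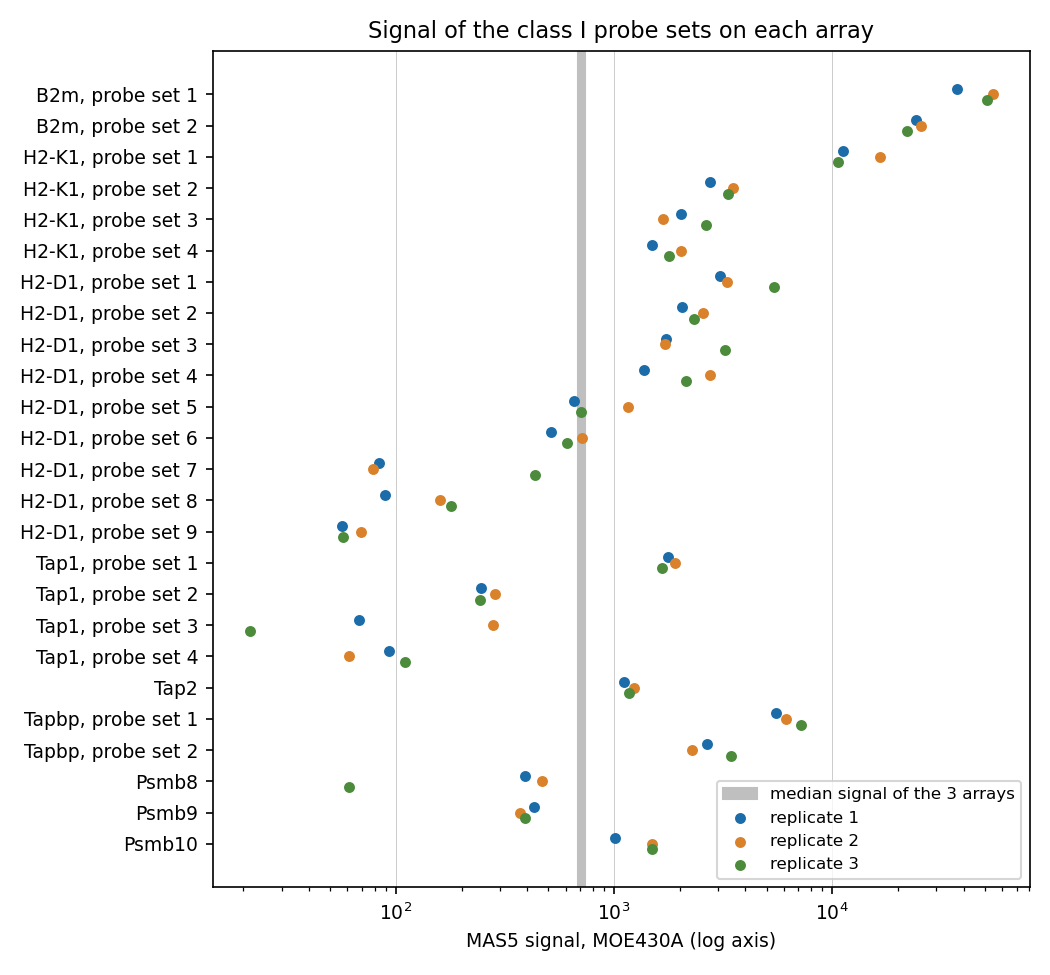
MAS5 signal (log axis) of the 25 probe sets on MOE430A, 1 point per replicate, with the range of the 3 array medians as a grey band; probe sets of a gene are numbered by mean signal. B2m lies at 21906 to 54353 units, Psmb10 at 1011 to 1499, and Psmb8 and Psmb9 lie left of the band on all arrays.

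The constitutive proteasome core was above the floor throughout. All 14 of its measured genes were, including the 3 catalytic subunits whose places the immunoproteasome subunits take. Psmb5 gave 11768, 9501 and 6794 units, Psmb6 6552, 9020 and 5225, and Psmb7 23507, 18384 and 15256. Psmb5 and Psmb7 were highest in replicate 1, and Psmb6 was highest in replicate 2. Of the proteasome activator and assembly genes, 8 of 8 measured genes were above the floor. With the 75th percentile as the floor, 4 of the 8 were above it, against 30.4% of all genes. Psme1, a subunit of the interferon-responsive activator, gave 5078, 5585 and 4204 units, and Psme3, which forms the nuclear activator, gave 1208, 925 and 1306. Psme2 had no probe set named here.

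The partners that fold and load class I molecules were mostly above the floor, with 9 of 11 measured genes. The chaperone calreticulin (Calr) gave 30775, 34253 and 38917 units and the thiol oxidoreductase Pdia3, which pairs with tapasin, gave 19073, 21878 and 27786. Calnexin (Canx), which receives newly made heavy chains, gave 15342, 14084 and 12264. Calr and Pdia3 were lowest in replicate 1 and Canx was highest there. Erap1, the aminopeptidase that trims peptides in the endoplasmic reticulum, gave 579, 683 and 517 units and was below the floor on every array, as was Tapbpl, a tapasin-related gene.

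Other class I and class I-like heavy chains were above the floor in 4 of 13 measured genes. With the 75th percentile as the floor 1 was above it, and with a floor of 200 units 8 were. Another 14 of the 27 listed had no probe set of their own named here. Fcgrt, the neonatal Fc receptor chain, gave 1916, 2514 and 2942 units. Hfe, which acts in iron balance, gave 1205, 1392 and 1124 units. H2-M3, which presents formylated peptides, gave 885, 1251 and 961 units, and H2-T3 gave 891, 984 and 1396. These 4 lay above the floor on every array, and all 4 proteins pair with beta-2 microglobulin.

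Of the regulators of class I genes, 18 of 22 measured genes were above the floor, against 54.7% of all genes. With the 75th percentile as the floor, 8 of the 22 were above it, against 30.4% of all genes. The interferon-responsive factor Irf1 gave 3326, 4250 and 4851 units, a mean of 4142 ± 768 (SD, n = 3), with replicate 1 the lowest. Nlrc5, the class I transactivator, was measured by a single MOE430B probe set at 902, 1988 and 706 units. These values lay below the highest Trp control on each MOE430B array, at 1989, 2348 and 2229 units. Nlrc5 was above the array median in replicates 1 and 2 and below it in replicate 3, so it did not count as above the floor. Irf2, Irf8 and Rfxap were the others below it. Beside these, the interferon receptor genes Ifngr1, Ifngr2, Ifnar1 and Ifnar2 were all above it.

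The fibroblast label was checked against marker lists, because class I genes are expressed by nearly all nucleated cells. All 14 measured fibroblast markers were above the floor, among them the intermediate filament gene Vim, at 164029, 130581 and 153518 units, and the collagen gene Col1a1, at 80483, 107005 and 133057. Of MHC class II presentation genes 4 of 11 were above it, H2-Aa, H2-Eb1, H2-DMa and H2-DMb2, and the class II transactivator Ciita was not. H2-Aa passed by a MOE430B probe set at 1819, 1230 and 1466 units, while its MOE430A probe sets were at 355 units or less. Those MOE430B values lay below the highest Trp control on each array, at 1989, 2348 and 2229 units. Of leukocyte markers 5 of 19 were above the floor, Csf1r, Cd14, Laptm5, Lyz2 and Cd8a. The macrophage growth factor receptor Csf1r gave 1945, 1694 and 1940 units and the lysozyme gene Lyz2 gave 2279, 2443 and 1367. Of the same list, Adgre1, Itgam, Itgax and Fcer1g were below the floor on every array, and Cd68 and Tyrobp were above it on 2 arrays. Cd8a passed by MOE430B probe sets, while its brightest MOE430A probe set gave 306, 336 and 437 units, below the floor. The pan-leukocyte gene Ptprc gave 56.9, 29.9 and 181 units on MOE430A and was below the floor on all arrays. Endothelial markers counted 2 of 9, Kdr and Egfl7, and pluripotency markers 1 of 8, Fgf4. Under the other floors the class II count ran from 0 to 8, the leukocyte count from 1 to 13, the endothelial count from 0 to 5 and the pluripotency count from 0 to 3, while the fibroblast count was 14 under each. No marker was listed at 0. In these bulk samples, fewer cells of a type and less RNA per cell cannot be told apart.

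**Figure D3:**
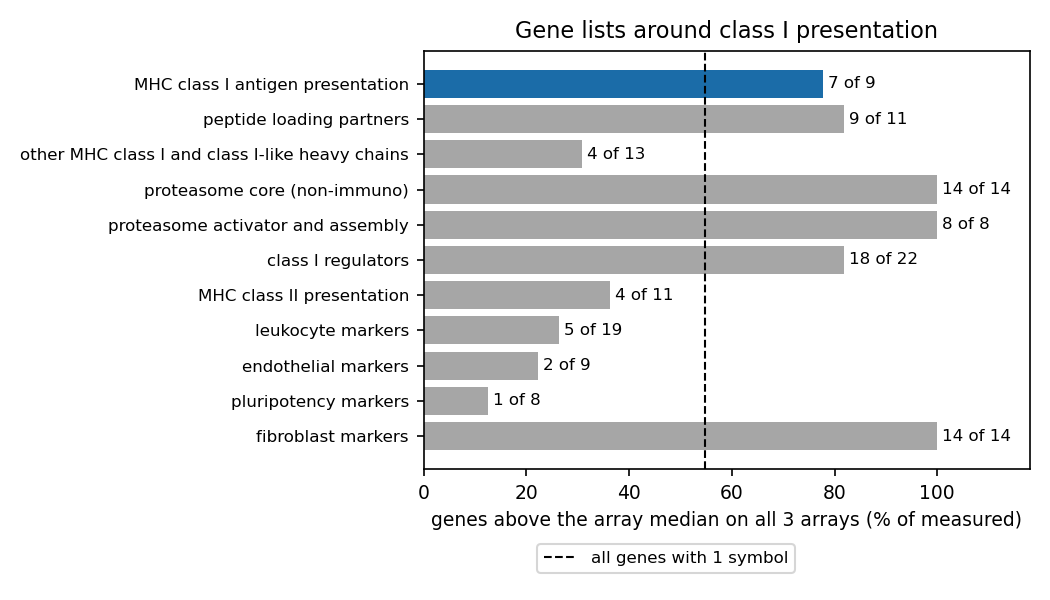
Share of measured genes (%) above the array median on all 3 arrays of a type, for the class I genes and 10 lists around them, with counts beside the bars and the share over all genes with a single symbol (54.7%) as a dashed line. The proteasome core, its activator and assembly genes and the fibroblast markers are at 100%, and MHC class II, leukocyte, endothelial and pluripotency lists lie left of the dashed line.

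The differences among replicates in the labels, in cell number, RNA concentration and sample volume, all set replicate 1 apart, so replicate 1 was compared with replicates 2 and 3 by limma on log2(signal + 16). Fold changes on this scale understate the change of dim genes. Of the 16 class I probe sets tested, all on MOE430A, 0 were called at an adjusted p of 0.05, and 1 had an unadjusted p below that value. Over all 11066 probe sets tested 78 were called, or 0.705%, of which 54 were lower in replicate 1 (0.488%) and 24 higher (0.217%), and 900 had an unadjusted p below the threshold (8.13%). The 78 became 0 without the filter on low values or under quantile normalization and 164 with a trended prior, while the class I calls numbered 0 in each. The standard errors of the 16 lay between 0.365 and 0.396, and the median 95% interval reached 0.75 to either side on the log2 scale, so differences smaller than that lie within the error. With replicate 1 alone in its arm, a difference cannot be told apart from the noise of that array.

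The 16 differences lay mostly on the same side of 0. Replicate 1 was below the mean of the others in 15 of 16 (14 of 16 under quantile normalization), against 51.1% of all probe sets tested, and the median log2 difference was -0.29 against -0.01 for all. Replicate 1 was the lowest of the 3 arrays in 10 of 16 (35.6% of all), between the others in 6, and the highest in 0 (33.2% of all). These probe sets share arrays and, for the heavy chains, sequence, so they are not 16 independent measurements. Replicate 2 was the highest in 11 (30.6% of all) and replicate 3 in 5 (36.3% of all).

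By role, the median log2 difference was -0.24 for the 2 light chain probe sets, -0.35 for the 9 heavy chain probe sets, -0.09 for the 4 of the transporter and tapasin, and -0.56 for Psmb10. The lowest single value was the fourth H2-D1 probe set, at -0.82 (SE 0.37, 95% interval -1.58 to -0.06, limma adjusted p = 0.55). Psmb10 differed by -0.56 (SE 0.37, interval -1.31 to 0.20, adjusted p = 0.79). The brighter B2m probe set differed by -0.50 (interval -1.25 to 0.25, adjusted p = 0.82) and the other by 0.03 (interval -0.73 to 0.78, adjusted p = 0.99). Tap1 differed by -0.0021 (interval -0.76 to 0.75, adjusted p = 1.0), and its sign turned to 0.041 under quantile normalization. None of these differences passed the adjusted threshold.

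**Figure D4:**
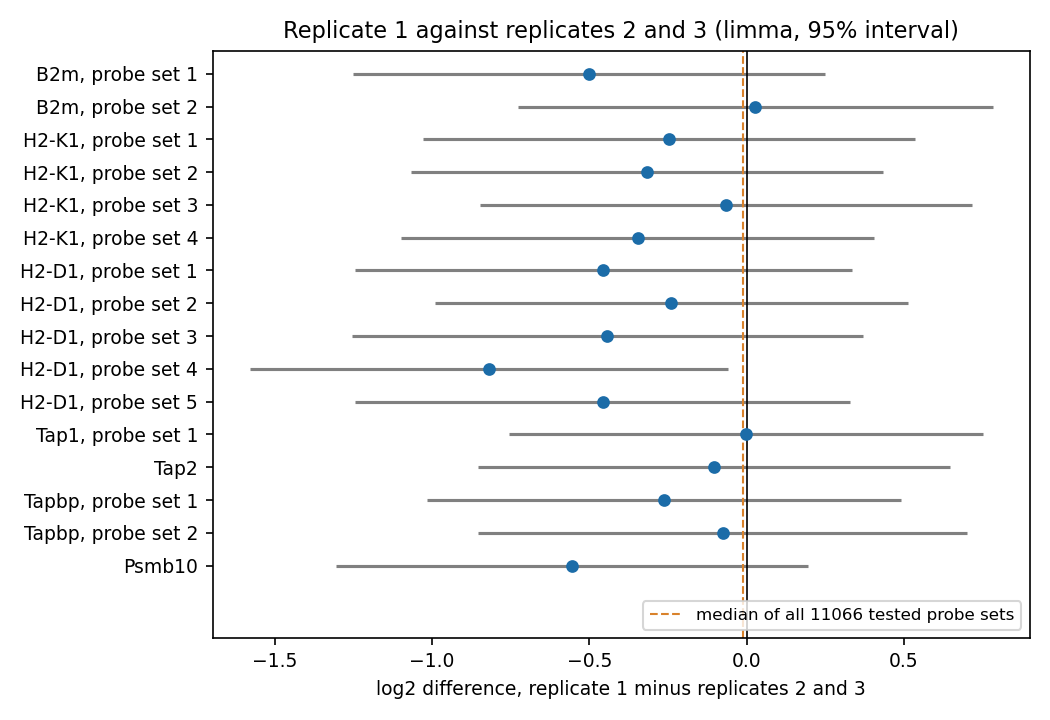
Log2 difference of replicate 1 from replicates 2 and 3 for the 16 class I probe sets tested on MOE430A, with limma's 95% interval as a line and the median of all 11066 tested probe sets dashed. Of the points 15 lie below 0 (14 under quantile normalization), and the interval of the fourth H2-D1 probe set alone ends below 0 (-0.06).

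The instrument records give replicates 1 and 2 of MOE430A a shared scan day and a shared station number, and replicate 3 another of each. Which instrument the station number refers to was not examined. Within the shared day, replicate 1 was below replicate 2 in 13 of 16 probe sets, with a median difference of -0.23. Between days, replicate 1 was below replicate 3 in 13 of 16, with a median of -0.33. The same counts were not made over all tested probe sets, so these cannot be told apart from a shift of the whole array pair. Single probe sets could differ between these pairs of arrays. The third H2-D1 probe set gave 0.01 within the day and -0.90 between days, the first H2-D1 probe set -0.10 and -0.81, the first H2-K1 probe set -0.57 and 0.07, and the third 0.26 and -0.39. The second Tapbp probe set gave 0.22 and -0.37, the second B2m probe set -0.09 and 0.14, and Tap1 -0.10 and 0.10. Psmb10 gave -0.56 and -0.55.

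The 24 fibroblast marker probe sets tested had a median log2 difference of -0.36, with 20 below 0 and 4 above, and replicate 1 was the lowest array in 17. The 20 of the proteasome core had a median of 0.20, with 14 above 0 and 6 below, and replicate 1 was the highest in 11 and the lowest in 1. Over all 11066 probe sets tested, replicate 1 was below the mean of the others in 51.1%, the lowest in 35.6% and the highest in 33.2%. Differences between the lists were not tested. No probe set of either list was called by limma, and their part in the class I values was not tested. The summed MOE430A signal of the 25 leukocyte marker probe sets was 15916, 15982 and 13508 units in replicates 1, 2 and 3, and that of the 25 class I probe sets was 101825, 130726 and 122341. The 2 B2m probe sets made up most of the class I sum, at 37303, 54353 and 51202 units and at 24167, 25639 and 21906. The 22 regulator probe sets tested had a median of -0.04, with 11 below 0 and 11 above, and replicate 1 was the lowest in 9. Of these 22, 3 had an unadjusted p below 0.05, against 8.13% of all tested, and none was called after adjustment. They were Rfx5, an X box factor, at 866, 1750 and 1352 units, Ifnar1, at 1658, 2602 and 3057, and a second Irf3 probe set.

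**Figure D5:**
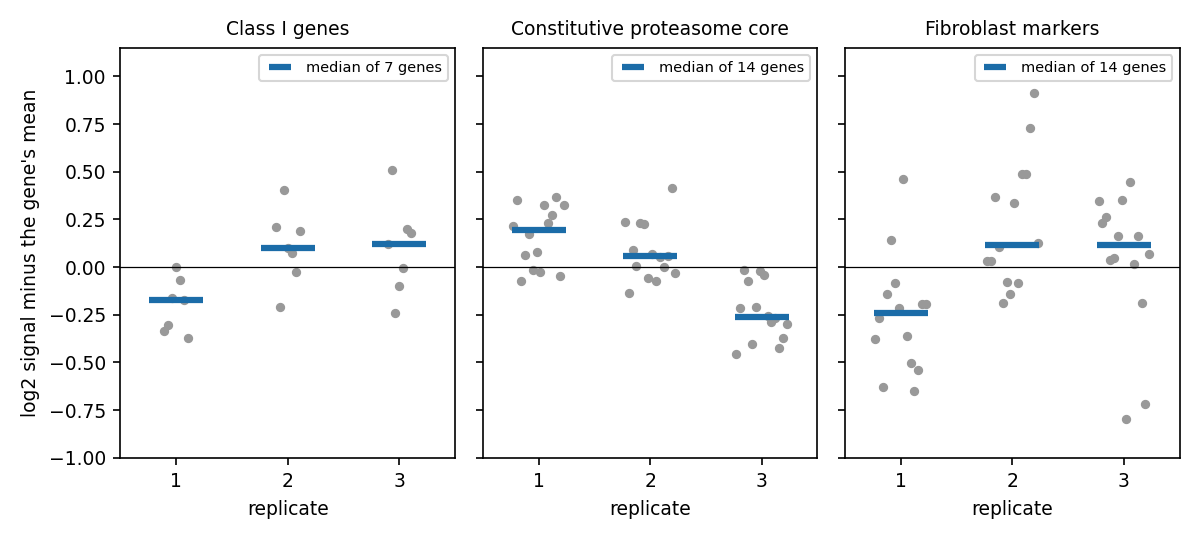
Log2 signal minus the gene's mean over the 3 arrays, 1 grey point per gene above the floor and the list's median as a blue bar, for the class I genes (7), the constitutive proteasome core (14) and the fibroblast markers (14). The class I medians are -0.17, 0.10 and 0.12 in replicates 1, 2 and 3, those of the proteasome core 0.20, 0.06 and -0.26, and those of the fibroblast markers -0.24, 0.12 and 0.11.

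The spread between replicates was compared with that of the array as a description. The median SD of the 15 class I probe sets above the floor was 0.29 on the log2 scale, from 0.07 for Tap2 to 0.52 for the third H2-D1 probe set, against 0.24 for all 9600 MOE430A probe sets above it. Without replicate 1 these were 0.16 and 0.18, without replicate 2 they were 0.26 and 0.21, and without replicate 3 they were 0.18 and 0.19. As a share of the mean signal the medians were 19.1% and 16.5%. The highest array exceeded the lowest by more than 2-fold in 1 of the 16 tested probe sets, against 11.8% of all tested.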

How the data were processed

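Total RNA was labelled with biotin and hybridised to Affymetrix MOE430A and MOE430B arrays, 3 of each. The authors deposited linear signal intensities, made with MAS5 per the submitters' processing notes. The version and settings of MAS5 are not stated in the sources used here. Trimmed means of 1477 to 1479 on all arrays show that the authors' values had been scaled to a common target within each type. Levels were not compared between types, and probe sets were ordered by mean signal only to number them and to choose which to print. Other deposited files are instrument records without measurements, and gave only the scan day and a station number.

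After 64 controls, 22626 MOE430A and 22511 MOE430B probe sets remained. Of these 20380 and 14661 had a single symbol in GEO's platform annotation, updated through RefSeq, 691 and 245 had several, and 1555 and 7605 are unnamed here. Replicate 1 was compared with replicates 2 and 3 by limma 3.58.1 (R 4.3.3; lmFit and eBayes, Benjamini-Hochberg over all probe sets tested) on log2(signal + 16), for probe sets with mean log2 signal above the mean log2 array median. There is 1 residual degree of freedom, so the test leans on its prior (25.6 degrees of freedom), and replicate 1 is taken to vary as the others do. That 1 degree is the difference between replicates 2 and 3, which on MOE430A were scanned on different days and have different station numbers. The script was tested on simulated data.

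The genes and lists were chosen with earlier results of these data known. Named from the lists were preset partners, the up to 4 genes of highest mean above the floor, and all members above it in lists mostly below it. Ptprc, Ciita, Tapbpl, Rfx5, Ifnar1, Irf2, Irf3, Irf8, Rfxap and the interferon receptors were named after their values were seen. So were Adgre1, Itgam, Itgax, Fcer1g, Cd68 and Tyrobp. A gene's value is its MOE430A probe set with the highest mean, or MOE430B where it has none. Alternatives were other floors, pseudocounts, no filter, quantile normalization, a trended prior and leaving out each replicate.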

Additional observations from a re-analysis of the deposited data

How the results depend on the processing

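With the 75th percentile as the floor, class I probe sets above it fell to 8 of 25, class I genes to 4 of 9 and genes of the 10 other lists from 79 to 51 of 129. A fixed floor of 200, the highest Trp control, or leaving out a replicate kept these totals within 1.5 times. Single lists moved more: class II went from 4 to 8 with a floor of 200, 2 with Trp and 0 with the 75th percentile, leukocyte from 5 to 13, 4 and 1, endothelial from 2 to 5, 1 and 0, other heavy chains from 4 to 8, 4 and 1, and regulators from 18 to 22, 18 and 8. Pluripotency went from 1 to 3, 1 and 0, and to 2 without replicate 3, and activator and assembly genes from 8 to 8, 8 and 4. The MOE430A limma calls went from 78 to 0 without the filter, with 1297 at an unadjusted p under 0.05, to 0 under quantile normalization, with 728, and to 164 with a trended prior, so they depend on these settings. On MOE430B limma called 0 in every setting run, with 767 at an unadjusted p under 0.05 in the main setting. Called class I probe sets numbered 0 in every setting run. Their median log2 difference was -0.30 under quantile normalization and ranged from -0.33 to -0.23 when replicate 2 or 3 was left out, with no test. Tap1 changed sign, to 0.041, under quantile normalization, and 14 of 16 differences were below 0 there. Without replicate 2 and without replicate 3, 13 of 16 were below 0, but a different 3 were above it. The share over all tested probe sets was not computed for these settings. The median SD of 0.29 became 0.16 without replicate 1, 0.26 without replicate 2 and 0.18 without replicate 3. Limma could not be run with a replicate left out, because 1 array against 1 leaves no residual degree of freedom. No paired analysis was possible because the groups that share replicate numbers are the array types, which were never compared with each other.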
